A study of Mus musculus with 12 samples.

Results

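Il2 and Il21 are neighbouring genes on mouse chromosome 3 that encode the cytokines interleukin 2 (IL-2) and interleukin 21 (IL-21). They were taken by their gene symbols, 2 of the 11022 genes measured, and followed across 4 groups of cytotoxic T lymphocytes (CTL). RNA sequencing was done on 12 cultures, 3 per group, of P14 CTL, which are CD8+ T cells from LCMV-P14 TCR transgenic mice whose T cell receptor (TCR) recognises the gp33-41 peptide of lymphocytic choriomeningitis virus. The mice were female, 9 to 13 weeks old, and all groups shared the same history: activation for 48 h with peptide, IL-2 and IL-12, then 5 days in IL-2, then a rest of 1 h on day 7 in fresh medium. That medium held IL-2 at 20 ng/mL in all 4 groups, so no group was without added cytokine. The first group was Unstimulated. The second (TCR) was retriggered with peptide at 100 ng/mL for 4 h. The third (TCR+PI3Kdi) received the same peptide with IC87114 at 10 µM, which inhibits the p110δ subunit of phosphoinositide 3-kinase (PI3K), and the fourth (TCR+MEKi) the peptide with PD184252 at 2 µM, which inhibits MEK1/2, the kinases that activate ERK1/2. DMSO was the vehicle. Lymph nodes or spleens of 3 mice gave the 3 biological replicates, and the labels do not tie a replicate number to a mouse.

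IL-2 and IL-21 belong to the cytokines whose receptors use the common gamma chain, and both signal through the kinases JAK1 and JAK3. IL-2 acts mainly through STAT5 and drives the growth of T cells, whereas IL-21 acts mainly through STAT3 and is best known as a product of follicular helper T cells that supports B cells. The Il2 gene is silent in resting T cells and is switched on after TCR engagement by NFAT, AP-1 and NF-kappaB proteins, and Il21 also responds to NFAT. Other cytokines of the family (Il4, Il7, Il9 and Il15) were not analysed here.

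Il2 (Entrez gene 16183) lies on the minus strand at chromosome 3, 37120713 to 37125954 of GRCm38 (mm10), with 4 exons and 949 exon bases, the last exon holding a 3′ UTR of 394 bases. Il21 (Entrez gene 60505) lies on the same strand at 37222759 to 37232636, and its start is 107 kb upstream of that of Il2. Because both genes were listed at or near 0 before stimulation and were higher after it, the 250 bases before each start are shown, taken from RefSeq (GRCm38.p6), 5′ to 3′ on the strand of the gene. The Il2 window is chr3:37125955-37126204 and the Il21 window is chr3:37232637-37232886. Capitals mark exact matches, on either strand, to motifs of factors named in this paragraph.
Il2: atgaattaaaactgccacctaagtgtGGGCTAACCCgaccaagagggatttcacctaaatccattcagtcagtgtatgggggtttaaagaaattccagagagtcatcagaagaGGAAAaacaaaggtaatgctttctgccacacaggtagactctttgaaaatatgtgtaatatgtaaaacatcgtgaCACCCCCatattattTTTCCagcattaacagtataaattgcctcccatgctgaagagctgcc
Il21: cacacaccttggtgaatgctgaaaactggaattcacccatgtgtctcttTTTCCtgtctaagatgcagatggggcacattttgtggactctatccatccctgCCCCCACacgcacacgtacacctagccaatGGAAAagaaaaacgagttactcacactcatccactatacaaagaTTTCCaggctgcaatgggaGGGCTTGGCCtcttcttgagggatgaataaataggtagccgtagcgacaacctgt
The motifs searched on both strands were the NFAT core GGAAA, AP-1 TGANTCA, NF-kappaB (3 G, any 5 bases and 2 C), FOXO TGTTTAC, the octamer ATGCAAAT and EGR GNGGGNG. The NFAT core matched 2 times in the Il2 window, nearest at bases 47 to 43 before the start, and 3 times in the Il21 window, nearest at bases 74 to 70. At least 1 such match was present in 55.6% of 32851 promoters of that length, at least 2 in 21.4% and at least 3 in 6.39%. The NF-kappaB letters matched at 1 position in each window (45.8% of promoters hold a match) and so did the EGR letters (60.3%). The Il2 NF-kappaB match reads on both strands. Neither window held an exact match to the AP-1, FOXO or octamer letters, which occur in 6.75%, 3.17% and 1.60% of promoters. A match describes letters only, and these short motifs are common.

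The first comparison asked how far antigen switched the genes on. Values are FPKM, fragments per kilobase of exon scaled to library size, so that levels can be compared between the genes. Il2 was listed at 0.19, 0 and 0 FPKM in the 3 Unstimulated cultures, where 0.19 corresponds to about 2 reads. After retriggering it was at 649, 704 and 763 FPKM, from about 6057 to 7157 reads. Il21 was listed at 0 in each Unstimulated culture and at 7.34, 8.76 and 8.96 FPKM after retriggering, from about 228 to 279.7 reads. For both genes every retriggered culture lay above every Unstimulated culture, as the plot of FPKM by sample shows.

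**Figure D1:**
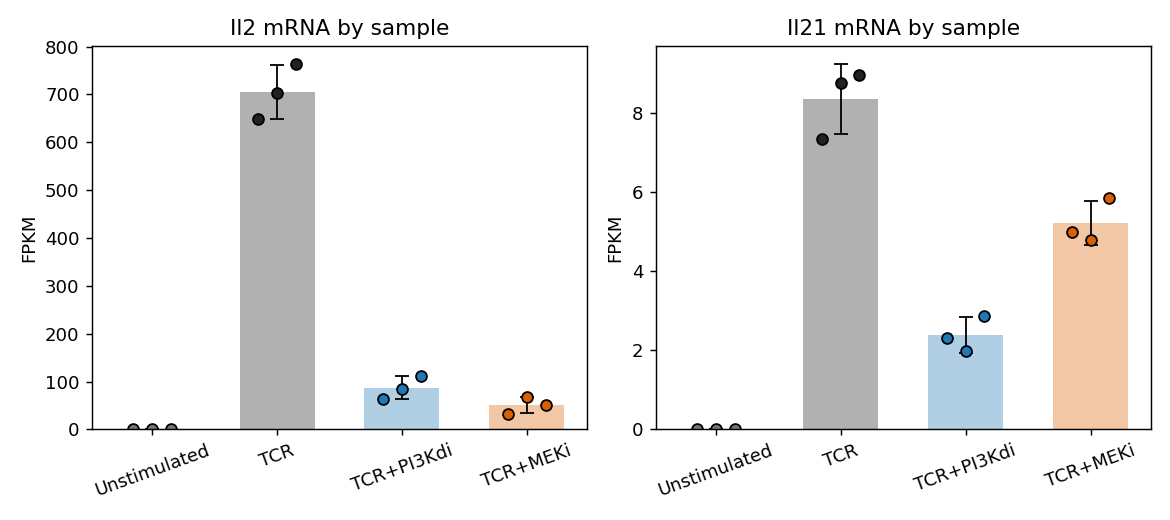
FPKM (linear axis from 0) of Il2 (left) and Il21 (right) in the 4 groups. Points are the 3 cultures of a group in the order of their numbers, bars the group mean and error bars the SD. Unstimulated cultures sit at 0.19 or 0, both inhibitor groups lie below TCR, and the means of the inhibitor groups are in opposite order for Il2 and Il21, with overlap for Il2.

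The group means after retriggering were 705 ± 57.3 FPKM (SD, n = 3) for Il2 and 8.35 ± 0.883 FPKM (SD, n = 3) for Il21. Il2 thereby became the 138th most abundant of the 11022 mRNAs and made up 0.0973% to 0.121% of the FPKM sum, while Il21 ranked 6099th. Against a floor of 3 reads per library (0.302 FPKM for Il2 and 0.0908 FPKM for Il21) the mean rise was at least 2333-fold for Il2 and at least 92.0-fold for Il21. Both were called higher in limma at an adjusted p under 0.05 with more than a 2-fold change (adjusted p = 2.09e-13 for Il2 and 3.68e-14 for Il21), as were 8.87% of all genes, and 11.1% were called lower. In bulk RNA a smaller share of producing cells and less mRNA per cell cannot be told apart.

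The cultures carried the genes of CTL. Of 8 CTL markers 7 were measured, and Gzmb, the cytolytic protease granzyme B, was the most abundant of them at a mean of 13005 FPKM in the TCR group. Their summed level ran from 10794 to 12022 FPKM in Unstimulated cultures and from 15283 to 17276 FPKM in the 3 stimulated groups. The helper T cell markers Cd4 and Zbtb7b, the latter for the factor that specifies the helper lineage, summed to 7.54 to 9.31 FPKM in Unstimulated, 7.59 to 8.26 in TCR, 5.27 to 8.23 in TCR+PI3Kdi and 9.90 to 11.2 FPKM in TCR+MEKi cultures. Cd4 alone averaged 0.773, 2.69, 2.94 and 0.450 FPKM in these groups, and Cd8a, the co-receptor chain of CTL, averaged 221, 360, 325 and 417 FPKM. Among follicular helper markers Bcl6 alone was measured, at 0.437, 3.14, 2.66 and 2.19 FPKM on average in the 4 groups. Ikzf4, the measured regulatory T cell marker, averaged 6.25, 2.99, 3.26 and 5.76 FPKM in the 4 groups. Of the NK cell markers Klrb1c and Eomes, which CD8+ T cells also express in part, the sum ran from 74.7 to 83.6 FPKM in Unstimulated, 108 to 114 in TCR, 112 to 117 in PI3Kdi and 73.2 to 82.0 FPKM in MEKi cultures. Zbtb46, the only dendritic cell marker measured, averaged 0.0267, 3.49, 1.97 and 3.11 FPKM in Unstimulated, TCR, PI3Kdi and MEKi cultures, the same order of groups as Il21. No B cell or myeloid marker was among the genes analysed. The part of these levels in the results for Il2 and Il21 was not tested.

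PI3K p110δ inhibition left both genes expressed but lower. Il2 was at 64.5, 84.8 and 112 FPKM with PI3Kdi, a mean of 87.2 ± 24.1 (SD, n = 3) or 12.4% of the TCR mean. Il21 was at 2.31, 1.97 and 2.87 FPKM, a mean of 2.38 ± 0.454 (SD, n = 3) or 28.5% of the TCR mean. Neither gene overlapped with its TCR values, and in all 3 same-numbered pairs the inhibited culture was lower. How many of all genes lacked such overlap was not counted. The log2 fold change was -3.05 (SE 0.34, adjusted p = 2.38e-05) for Il2 and -1.78 (SE 0.15, adjusted p = 2.04e-06) for Il21. Both passed the test as lower, as did 1.38% of all genes, while 0.499% were called higher. Il2 had the 4th lowest log2 fold change of all genes and Il21 the 43rd lowest. Relative to the same floor of 3 reads, Il2 with PI3Kdi remained at least 289-fold and Il21 at least 26.3-fold above the Unstimulated group.

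With MEK inhibition Il2 was low and Il21 was closer to its TCR level. Il2 was at 32.98, 67.06 and 51.92 FPKM with MEKi, a mean of 50.7 ± 17.1 (SD, n = 3) or 7.18% of the TCR mean. Il21 was at 5.00, 4.80 and 5.84 FPKM, a mean of 5.21 ± 0.552 (SD, n = 3) or 62.4% of the TCR mean. No culture with MEKi reached the lowest TCR value of either gene. For Il2 the log2 fold change was -3.85 (SE 0.34, adjusted p = 9.45e-07), the 10th lowest of all genes, and it was called lower, as were 2.51% of all genes, with 0.98% called higher. For Il21 it was -0.67 (SE 0.15, 95% interval -0.996 to -0.343, adjusted p = 0.00336), which passed the threshold on adjusted p but not the 2-fold threshold, so Il21 was not called. Its fall ranked 525th. Both inhibitor comparisons use the same TCR cultures, so their values are given side by side. The plot of mRNA left under each inhibitor shows the 4 sets of values on a common scale.

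**Figure D2:**
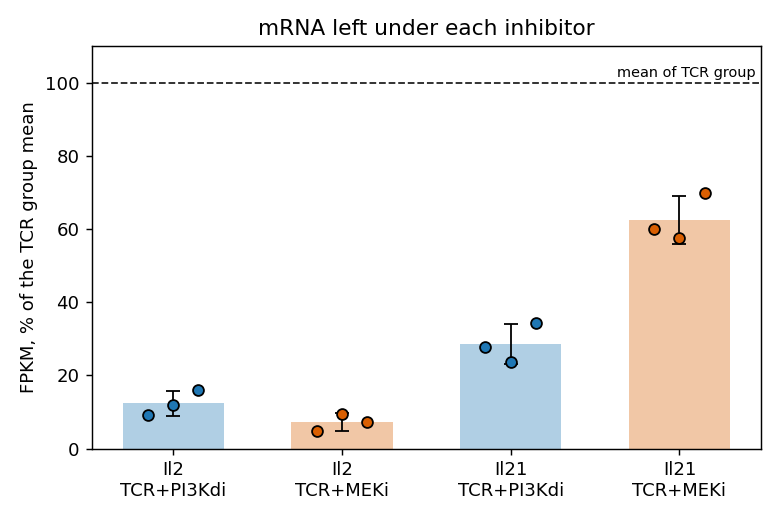
FPKM of Il2 and Il21 with each inhibitor as a percentage of the TCR group mean (dashed line at 100). Points are cultures, bars means and error bars the SD of 3 cultures; Il2 is left at 12.4% and 7.18%, Il21 at 28.5% and 62.4%.

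The comparison of the inhibitor groups with each other tests whether their levels differ. The spread is estimated over all 12 cultures. Il21 was higher with MEKi than with PI3Kdi in all 3 same-numbered pairs and without overlap, by a log2 fold change of 1.11 (SE 0.15, adjusted p = 7.56e-05). It was called higher, as were 1.39% of all genes, with 1.71% called lower. That call rests on a change close to 2-fold: without TCR+PI3Kdi replicate 2 the log2 fold change was 0.98 and with a pseudocount of 1 it was 0.88, both short of the 2-fold threshold at adjusted p of 0.000543 and 2.40e-05. Over all alternatives the adjusted p ran from 2.40e-05 to 0.000819. Il2 was lower with MEKi in all 3 same-numbered pairs, but the groups overlapped, since MEKi replicate 2 (67.1 FPKM) lay above PI3Kdi replicate 1 (64.5 FPKM). The log2 fold change of Il2 was -0.81 (SE 0.34, 95% interval -1.53 to -0.08, adjusted p = 0.0911), which was not called. Fitted on the inhibitor groups alone, the adjusted p of Il2 was 0.0235, and leaving out Unstimulated replicate 1, the only Unstimulated culture with any Il2 reads, gave an adjusted p of 0.0119. Over all alternatives the adjusted p ran from 0.0103 to 0.479, and without PI3Kdi replicate 1 or MEKi replicate 2 the log2 fold change was -1.01 or -1.04, past 2-fold. None met both thresholds. By level, the order for Il2 was TCR, PI3Kdi, MEKi, Unstimulated, with PI3Kdi and MEKi not separated. The order for Il21 was TCR, MEKi, PI3Kdi, Unstimulated, with no overlap between any of these neighbours.

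The ratio of Il2 to Il21 within a culture put the unequal changes on a single scale, in which a scale factor common to a sample cancels. In FPKM it was 88.4, 80.3 and 85.2 in TCR cultures, 27.9, 43.1 and 39.2 with PI3Kdi and 6.60, 13.97 and 8.89 with MEKi. The means were 84.6 ± 4.05, 36.7 ± 7.87 and 9.82 ± 3.77 (SD, n = 3 each), and no groups overlapped. On the log2 scale the 3 groups differed in an exact permutation test of the F statistic over all 1680 assignments of the 9 cultures (p = 0.00357, the smallest this design allows). Over the 216 assignments within replicate numbers, an alternative chosen after seeing the data, the exact permutation p was 0.0278, also the smallest possible. The log2 ratio was lower by 1.27 with PI3Kdi and by 3.18 with MEKi than in TCR cultures, and lower by 1.91 with MEKi than with PI3Kdi. Between same-numbered cultures these differences ran from -1.70 to -0.95, from -3.75 to -2.54 and from -2.11 to -1.58. Each of the 3 pairwise exact two-sided permutation tests gave p = 0.1 (0.1 after Benjamini-Hochberg adjustment over the 3), which is the smallest p that 3 against 3 cultures can give. The plot of the ratio by sample shows the 3 separate levels.

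**Figure D3:**
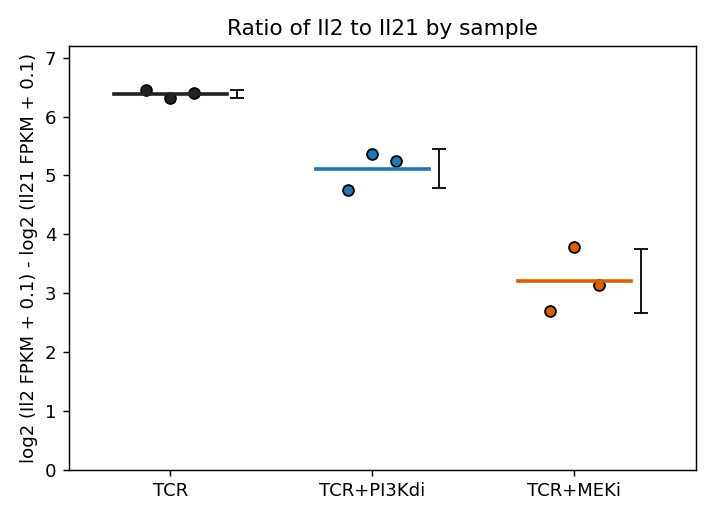
Log2 ratio of Il2 to Il21 (difference of log2(FPKM + 0.1), linear axis) in the 9 stimulated cultures. Points are cultures, horizontal lines group means and error bars the SD; the means are 6.38 in TCR, 5.12 with PI3Kdi and 3.20 with MEKi.

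Other TCR-induced cytokines gave the scale for these levels. All 5 of the list (Ifng, Tnf, Csf2, Il3 and Il10) were called higher after retriggering, with a median log2 fold change of 8.67 against -0.01 over all genes, and all were more abundant than Il2 in TCR cultures. Ifng, the macrophage-activating cytokine of CTL, was at 29597 FPKM, and Il3, a growth factor for blood progenitors, at 2464 FPKM. With PI3Kdi 4 of the 5 were called lower (median -2.17, all genes 0.02), as were 1.38% of all genes. With MEKi 4 of the 5 were called lower (median -1.70, all genes 0.01), as were 2.51% of all genes. After quantile normalisation these counts were 3 and 3. Ifng was not called with either inhibitor, at log2 fold changes of -0.55 and -0.84. Csf2, which encodes the myeloid growth factor GM-CSF, was at 3211, 3106 and 3299 FPKM in TCR cultures, 449.9, 507 and 559 FPKM with PI3Kdi and 258, 451 and 332 FPKM with MEKi. Both inhibitor groups lay below TCR, and they overlapped each other, since MEKi replicate 2 lay just above PI3Kdi replicate 1. Its log2 fold changes were -2.67 with PI3Kdi and -3.24 with MEKi.

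The genes whose pattern was most like Il2 were found in 2 ways, as a description. By Pearson correlation of log2(FPKM + 0.1) over the 12 cultures the top 5 were Kcnh4, Mbp, Slc41a1, Csf2 and Il10, with r from 0.995 to 0.998. The points share the step from Unstimulated to stimulated cultures. Il21 came only 294th for Il2, at r = 0.965. By distance between the pair of inhibitor log2 fold changes, among 854 other genes called higher by TCR with a TCR mean of at least 1 FPKM, the nearest to Il2 were all cytokines. They were Il1a, Csf2, Il17f, Tnf and Il27, at distances of 0.53 to 1.13 log2 units. Il1a, an inflammatory cytokine of the IL-1 family, went from 6.73 FPKM to 0.917 with PI3Kdi (log2 fold change -2.87) and 0.260 with MEKi (-4.36). Il1a, Il17f and Il27 averaged under 1 FPKM with either inhibitor, near the pseudocount of 0.1, so their distances depend on it. Under other settings the Il1a changes ran from -3.02 to -2.04 with PI3Kdi and from -4.85 to -2.62 with MEKi. Tnf, tumour necrosis factor, went from 3252 FPKM to 539 (-2.61) and 409 (-3.05).

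For Il21 the correlations led to Stat5a, Nfkb2, Nfkbiz, Slc35d3 and Il23a, with r from 0.995 to 0.998, and Il2 came 298th. Among the nearest in inhibitor changes were Inhba, Cd74, Gm13889 and Nfkbid, at distances of 0.13 to 0.44 log2 units, with Il2 at 3.43. Inhba and Gm13889 averaged 0.95 and 0.257 FPKM with PI3Kdi, so their distances depend on the pseudocount of 0.1. The SE of their log2 fold changes was 0.37 and 0.41. Il23a, which encodes a subunit of IL-23, was at 80.5, 76.5 and 79.6 FPKM in TCR cultures, 14.71, 15.97 and 18.27 FPKM with PI3Kdi and 47.1, 48.3 and 55.5 FPKM with MEKi. Its 3 stimulated groups were in the order of Il21 and did not overlap, with log2 fold changes against TCR of -2.27 (called) and -0.65 (not called). It was called higher with MEKi than with PI3Kdi, by 1.62. Nfkbid, for a nuclear regulator of NF-kappaB, followed the same order at 456, 106 and 234 FPKM in TCR, PI3Kdi and MEKi cultures, and was called higher with MEKi than with PI3Kdi by 1.13.

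**Figure D4:**
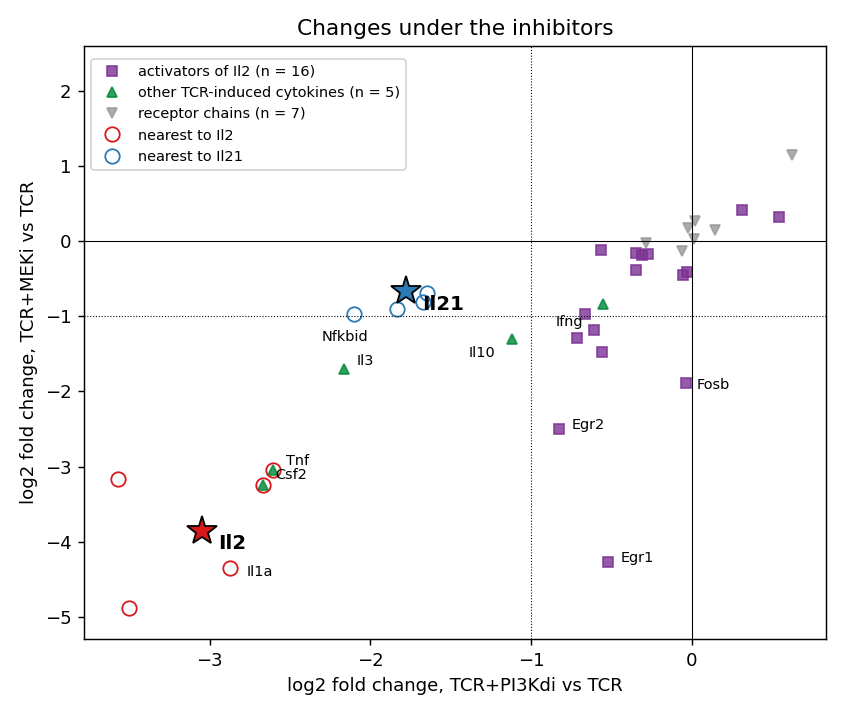
Log2 fold changes with PI3Kdi (x axis) and MEKi (y axis), each against the same TCR cultures, for Il2 and Il21 (stars), genes nearest to each (open circles) and 3 gene lists. Dotted lines mark a 2-fold fall. Il2 lies at -3.05 and -3.85, Il21 at -1.78 and -0.67, and Egr1 falls with MEKi without passing 2-fold with PI3Kdi.

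On the receiving side, mean levels of the receptor chains in Unstimulated cultures ran from 9.50 FPKM for Il15ra to 602 FPKM for Il2rb. Of 8 receptor genes for common gamma chain cytokines 7 were measured, and limma called 0 of them in TCR against Unstimulated, 0 with PI3Kdi against TCR and 0 between the inhibitors, while 5, 2 and 4 had an unadjusted p under 0.05. Over all genes 8.87% were called higher and 11.1% lower in the first of these comparisons, 0.499% and 1.38% in the second, and 1.39% and 1.71% in the third, so that 0 of 7 says little about the chains. Il2ra, the high-affinity chain for IL-2, was at 281 ± 23.2 FPKM in Unstimulated, 434 ± 15.6 in TCR, 440.1 ± 12.4 in PI3Kdi and 524 ± 17.1 FPKM in MEKi cultures (SD, n = 3). Il2rb, the signalling chain shared with IL-15, went from 602 to 387 FPKM on retriggering, a log2 fold change of -0.63 that passed 2-fold after rescaling to a common FPKM sum (-1.05) and after quantile normalisation (-1.08), where 2 and 1 of the 7 chains were called lower. Il2rg, the common gamma chain, was at 259 FPKM in Unstimulated and 366 FPKM in TCR cultures. Il21r, the specific chain for IL-21, was at 97.6, 149.5, 151 and 153 FPKM in the 4 groups, and its means with either inhibitor differed from the TCR mean by less than the SD of TCR cultures (7.83 FPKM). Il7r, which binds IL-7, was the single chain called with MEKi, from 10.2 to 22.9 FPKM (log2 fold change 1.15, adjusted p = 4.22e-05). With MEKi 0.98% of all genes were called higher and 2.51% lower.

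Among the JAK and STAT genes that serve these cytokines, Stat5a and Stat5b were called higher on retriggering. Stat5a, which transmits the IL-2 signal, was at 11.7 FPKM before and 124 FPKM after retriggering, a rise of 3.40 on the log2 scale (SE 0.05, adjusted p = 3.51e-16). Stat5b rose from 14.2 to 37.9 FPKM, by a log2 fold change of 1.41 that ended just short of 2-fold on a common FPKM sum (0.997). With PI3Kdi neither was called, and Stat5a was at 62.2 FPKM there, a log2 fold change of -0.99. With MEKi Stat3, the main STAT of IL-21, was called higher, at 205 FPKM compared with 100 in TCR cultures, which is 1.03 on the log2 scale (SE 0.05, adjusted p = 3.93e-09). Of 4 feedback inhibitors of cytokine signalling, Socs1 and Socs2 were called lower on retriggering, at log2 fold changes of -1.71 and -1.35. Socs1 was higher with MEKi than with PI3Kdi, with means of 48.04 and 15.80 FPKM, which differ by 1.62 on the log2 scale (SE 0.12, adjusted p = 2.61e-07).

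Transcription factors that act on the Il2 gene were mostly higher after retriggering. Of 16 genes listed here as activators by family (NFAT, AP-1, NF-kappaB and EGR), 10 were called higher and 1 lower on retriggering, beside 8.87% and 11.1% of all genes. Whether each listed gene activates Il2 in these cells was not tested. The median log2 fold change of the 16 was 1.22 against -0.01 over all genes. On a common FPKM sum the counts were 7 and 2, with a median of 0.81 against -0.41. Rel, the NF-kappaB subunit c-Rel, went from 3.68 to 92.7 FPKM and Nfkb1 from 114 to 331 FPKM. Egr2 and Egr3, early response genes of TCR signalling, went from 1.47 to 172 FPKM and from 2.50 to 87.3 FPKM. Nfatc2, for the calcium-regulated factor NFAT1, fell from 30.6 to 10.8 FPKM.

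With PI3Kdi 0 of the 16 activators were called in limma in either direction (median -0.35, all genes 0.02), while 11 were lower and 2 higher at an unadjusted p under 0.05. The share of all genes at that unadjusted threshold was not counted, so 11 and 2 have no background here. With 1.38% of all genes called lower and 0.499% higher, a count of 0 is near the background. With MEKi 6 were called lower (Fos, Fosb, Fosl1, Egr1, Egr2 and Egr3) and 0 higher, beside 2.51% and 0.98% of all genes. At an unadjusted p under 0.05 these counts were 12 lower and 2 higher, again without a share of all genes. The median was -0.42 against 0.01. On a common FPKM sum Fosl1 no longer passed 2-fold (-0.92). Egr1 was at 76.3, 89.2 and 97.0 FPKM in TCR cultures, 55.9, 60.1 and 66.4 FPKM with PI3Kdi and 3.76, 5.51 and 4.13 FPKM with MEKi. Every MEKi culture was thus below the Unstimulated mean of 37.2 FPKM, and the log2 fold change against TCR was -4.27 (SE 0.12, adjusted p = 2.14e-11). Egr2 went from 172 to 97.2 FPKM with PI3Kdi and to 30.7 FPKM with MEKi. Fosb, Egr1 and Egr2 were called lower with MEKi than with PI3Kdi, and the other 13 activators were not called. Of all genes 1.71% were called lower and 1.39% higher in that comparison.

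Of 6 repressors of Il2, Prdm1 (Blimp-1) and Ikzf3 (Aiolos) were called higher on retriggering, from 5.53 to 18.6 FPKM and from 8.87 to 45.0 FPKM. In that comparison 8.87% of all genes were called higher and 11.1% lower. Limma called 0 of the 6 with PI3Kdi and 0 with MEKi, where 3 and 3 had an unadjusted p under 0.05. Over all genes 0.499% were called higher and 1.38% lower with PI3Kdi, and 0.98% and 2.51% with MEKi. Counts of 0 of 6 are near these shares. Among 6 factors linked to Il21, Irf4 and Bcl6 were called higher on retriggering and Maf and Nfatc2 lower, beside 8.87% and 11.1% of all genes. Irf4, a factor induced by TCR signal strength, went from 21.4 to 406 FPKM and Bcl6, the follicular helper factor, from 0.437 to 3.14 FPKM. Maf, an activator of Il21 in helper cells, fell from 16.9 to 6.43 FPKM. With PI3Kdi 0 of these 6 were called (4 at an unadjusted p under 0.05). With MEKi Stat3 alone was called, beside 0.98% of all genes called higher and 2.51% lower.

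The neighbourhood on chromosome 3 was described for comparison. Within 1000000 bases of the Il2 start, 11 of 18 other protein-coding genes were measured. On retriggering 1 was called higher (Spry1) and 1 lower (Ccna2), beside 8.87% and 11.1% of all genes, which is near the background, and the median log2 fold change of the 11 was 0.12. Spry1, which encodes an inhibitor of receptor signalling to ERK, lies 514 kb from the Il2 start. It was at 0.39, 0.31 and 0.15 FPKM in Unstimulated, 55.2, 48.5 and 42.3 FPKM in TCR, 53.9, 52.7 and 49.8 FPKM in PI3Kdi and 14.5, 16.7 and 13.4 FPKM in MEKi cultures. Values with PI3Kdi overlapped TCR (log2 fold change 0.11, adjusted p = 0.709), and those with MEKi lay below (log2 fold change -1.71, SE 0.18, adjusted p = 6.09e-06). Ccna2, for cyclin A2, went from 78.6 to 28.5 FPKM on retriggering. With PI3Kdi limma called 0 of the 11 (3 at an unadjusted p under 0.05) and with MEKi only Spry1. Over all genes 0.499% were called higher and 1.38% lower with PI3Kdi, and 0.98% and 2.51% with MEKi. A count of 0 of the 11 is near these shares.

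**Figure D5:**
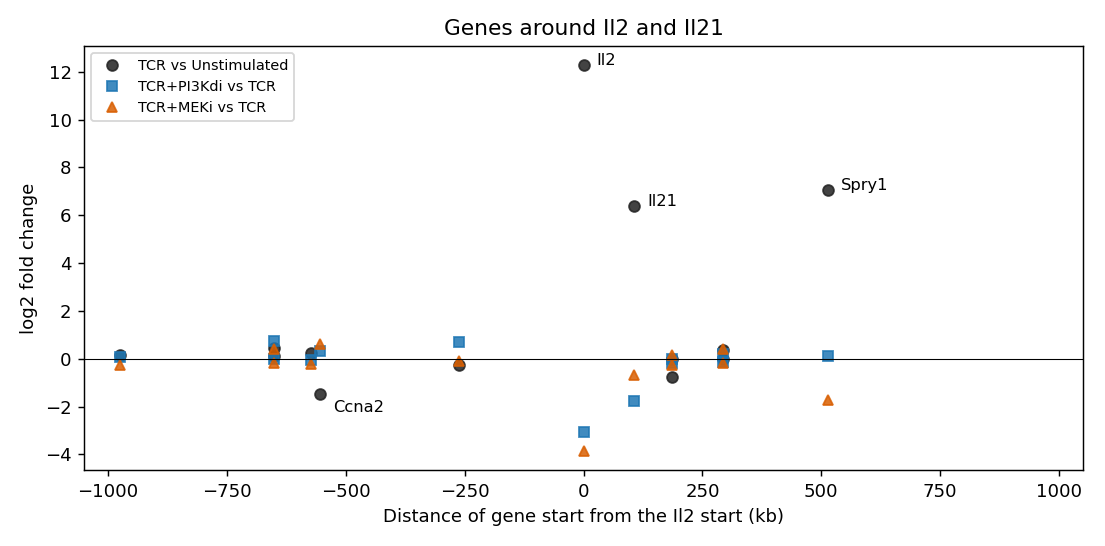
Log2 fold change of the 13 measured genes within 1000000 bases of the Il2 start, by distance of their start (kb, positive towards and beyond Il21). Circles are TCR against Unstimulated, squares PI3Kdi and triangles MEKi against TCR; Il2, Il21 and Spry1 rise on retriggering, and with PI3Kdi only Il2 and Il21 pass a 2-fold fall.

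Shared sequence could affect the counts of either gene. Of the 100-base stretches of Il2 transcripts in GENCODE M21, 8.42% also occur in Ntan1, an unrelated gene named here for that reason. Ntan1 was at 77.6 FPKM in Unstimulated cultures, where Il2 was at 0 to 0.19 FPKM, and at 45.5 to 49.7 FPKM on average in the stimulated groups. Of the stretches of Il21, 6.42% occur on the other strand in the antisense gene Gm12534, and whether counting used the strand is not given in the sources used here.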

How the data were processed

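RNA was sequenced from 12 cultures (TruSeq Stranded mRNA, paired-end reads of 100 bases). Per the submitters' processing notes and the study's methods, the authors aligned reads to mm10 with STAR 2.4.2a, counted them per RefSeq gene with Subread 1.5.0, filtered low counts (filterByExpr), applied TMM and computed FPKM in edgeR. The deposited table holds these FPKM values for 11022 genes, not pooled over replicates, with no counts. Groups followed the labels.

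Here log2(FPKM + 0.1) of all genes was fitted with limma 3.58.1 in R 4.3.3 (1 mean per group, 12 samples, eBayes with trend). Fold changes are on that scale, which understates changes of low genes. A call needed more than a 2-fold change and p under 0.05 after Benjamini-Hochberg adjustment over all genes. Counts at an unadjusted p under 0.05 are given without the share of all genes at that threshold, which was not counted. The share of all genes without overlap between groups was not counted either, so lack of overlap is a description only. The study used voom on counts, which FPKM values do not allow. Alternatives were other pseudocounts, a filter at a mean of 1 FPKM, rescaling to a common FPKM sum, quantile normalisation, a replicate block, the compared groups alone, no trend, and leaving out each culture. The fit was tested on simulated data. The ratio was tested by permutation in Python 3.11.15. Named genes were the members, genes of the lists that were called or are cytokines or receptor chains, all measured neighbours, and the 5 most alike by each measure. Some genes that this rule takes in are not reported here. The members and lists were chosen with earlier results of these data known.

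Depth is not in the table. Steps between low FPKM values gave an approximate effective depth of 7860000 to 13280000 reads per sample. Of 46 to 85 low values in each sample, 62.5% to 82.4% fell no more than 0.15 from a whole number of reads, so whole reads were not recovered, and reads are approximate, for Il21 also because its exon length in the authors' annotation is not given in the sources used here. Floors of 3 reads cover counting error only. 

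Same-numbered cultures are paired here because their deviations from group means correlated above 0.1 in every pair of the stimulated groups: 0.45, 0.38 and 0.24 for PI3Kdi and TCR, 0.15, 0.12 and 0.18 for MEKi and TCR, and 0.14, 0.15 and 0.15 for the inhibitors. For TCR and Unstimulated they were 0.10, 0.15 and 0.0037, so these were not compared as pairs. The main fit and the test over 1680 assignments did not use the pairing. It entered only the same-numbered comparisons, the 216 assignments and the replicate block, and the block covered the Unstimulated cultures too. Where nothing ties numbers to mice, p-values measure the spread between cultures.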

Additional observations from a re-analysis of the deposited data

How the results depend on the processing

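All 8 comparisons of Il2 and Il21 kept their direction under 8 other settings and without each culture in turn, and 7 kept their call, or lack of it, at both thresholds jointly. The exception was Il21 in MEKi against PI3Kdi, at 0.88 with a pseudocount of 1; leaving out replicates gave 0.98 to 1.25, against 1.11. Leave-one-out ranges of the log2 fold change for Il2 were 12.01 to 12.78 for TCR against Unstimulated, -3.25 to -2.85 with PI3Kdi, -4.08 to -3.57 with MEKi and -1.04 to -0.53 between the inhibitors (adjusted p from 0.0119 to 0.309); there Il2 crossed the adjusted p threshold in some alternatives and the 2-fold threshold in others, never both. For Il21 the first 3 were 6.34 to 6.49, -1.91 to -1.65 and -0.76 to -0.61. The fitted rises of both genes depend on the pseudocount (9.38 to 14.66 for Il2 and 3.22 to 9.70 for Il21). With the replicate block Il2 between the inhibitors stayed at -0.81 (adjusted p = 0.105), and no call of either gene changed; called genes numbered 2206, 209, 389 and 349. The difference of the log2 ratio between MEKi and TCR ran from -3.24 to -2.88 under 4 settings and from -3.47 to -2.93 without single cultures. The permutation p over the 3 groups was at the smallest possible value in each, so it carries no information on stability. Called genes in the 4 comparisons numbered 2202, 207, 385 and 341, and with a pseudocount of 1 they numbered 1405, 90, 201 and 150. Rescaling to a common FPKM sum moved the median of all genes to -0.41, 0.19, 0.26 and 0.07, and the share of called genes that were higher from 44.4%, 26.6%, 28.1% and 44.9% to 22.1%, 52.7%, 61.5% and 54.3%. On that scale Il21 with MEKi was at -0.41 against TCR (adjusted p = 0.0482). Of 960 alternatives for other named genes, 955 kept their direction and side, 2 lost and 3 gained the call, and 0 reversed. Depth limits Il2 and Il21 in Unstimulated cultures to an upper bound, and with 3 cultures a group single values weigh heavily.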
